A study of Mus musculus with 158 samples.

Results

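Single cells taken from primary mouse cultures after 15 days were compared by cell type: 8 libraries labelled astrocyte, from cortex, against 8 labelled neuron, from hippocampus, out of 158 libraries in the whole series. These 16 were chosen by their labels for cell type, region, source and culture days. Each was a single cell aspirated through a patch pipette, whose RNA went through 3 rounds of antisense RNA amplification before poly(A) sequencing, and no cell was treated. The astrocytes carry the strain label C57/BL6/N and the hippocampal neurons C57/BL6. Region and strain therefore differ together with cell type, and the 3 cannot be told apart. No label names an animal, a donor or a culture dish, so each group is 1 sample made of 8 libraries. The neuron titles M1S and M1D share a stem, as do M9S and M9D, and the labels do not say whether a stem is 1 cell. Astrocytes and neurons are counted below by library. Differences are given as values over these libraries, with no test.

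Astrocytes are glial cells that take up glutamate and potassium, supply cholesterol in lipoproteins, and keep the ability to divide in culture. They are usually recognised by the glutamate transporters Slc1a2 and Slc1a3, the water channel Aqp4, the transcription factor Sox9 and the filament protein Gfap. Neurons are postmitotic. They carry the proteins of vesicle release, voltage-gated channels and transmitter receptors, and are either glutamatergic, with Slc17a7 or Slc17a6, or GABAergic, with the glutamate decarboxylases Gad1 and Gad2 and the vesicular transporter Slc32a1.

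Values are counts per 1000000 counts of a library (CPM). A group's level is the CPM of its summed counts, and the difference between groups is log2 of the astrocyte level plus 1 CPM over the neuron level plus 1 CPM, so that positive values are higher in astrocytes. A group of 8 is described by its lowest, median and highest library. Library totals ran from 7603410 to 22242800 counts in astrocytes (median 11059200) and from 4654240 to 21215000 in neurons (median 10649000). After every library was thinned to 2000000 counts, 2588 to 9743 genes had at least 5 counts in an astrocyte (median 5971) and 5521 to 10174 in a neuron (median 7889). Pearson's r of log2(CPM + 1) across genes was 0.245 to 0.491 between libraries of different groups, 0.329 to 0.741 among astrocytes and 0.549 to 0.849 among neurons. Genes are not independent replicates, and these r describe the libraries only.

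One library held the markers of another cell type than its label names. Astrocyte 6 held 4197 CPM of the fractalkine receptor Cx3cr1, 2071 CPM of the microglial calcium-binding protein Aif1, 413 CPM of the colony stimulating factor receptor Csf1r and 402 CPM of the signalling adaptor Tyrobp. Its astrocyte markers were mixed: Sox9 was at 5.73 CPM, Slc1a3 at 1.97, Aqp4 at 0.282 and Gfap at 0, while Gja1 was at 81.7 CPM, Glul at 222 CPM and Apoe, which microglia also make, at 3892 CPM. After thinning, 9 of 20 astrocyte markers were detected in it, against 11 to 19 in the other astrocytes, and their summed level, most of it Apoe, lay within the range of the others, 2758 to 6295 CPM. Of the 12 microglia markers, 11 were detected there after thinning, with a summed level of 12008 CPM. The other 7 astrocytes ranged from 2.07 to 620 CPM for that sum, and neurons from 0.215 to 36.2 CPM. Astrocyte 7, at 345 CPM, had 9 of the 12 markers detected, with Ptprc at 93.9 CPM and Cx3cr1 at 19.7 CPM. P2ry12 was counted in these 2 libraries only, at 48.6 and 15.7 CPM, and Tmem119 in none, so both were left out of the measured genes. Because of this, the results that rest on the library labelled astrocyte 6 are also given over the other 7 astrocytes.

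The other astrocytes also differed from one another. Slc1a3 ran from 121 to 2563 CPM and Sox9 from 69.7 to 988 CPM in the 7 libraries without astrocyte 6, and all of these lay above every neuron. Gfap was low throughout, with a median of 1.02 CPM and a highest value of 45.5 CPM. Slc1a2 reached 194 CPM in astrocyte 7 and 164 CPM in astrocyte 1 and at most 35.3 CPM in the other 6. The gap junction gene Gja1 was at 0.230 and 0.265 CPM in astrocytes 2 and 4, and between 81.7 and 254 CPM in the other 6. Collagen Col1a2, a fibroblast marker, was at 349 CPM in astrocyte 7 and 132 CPM in astrocyte 8, against at most 1.60 CPM in the other 6. The summed level of 12 fibroblast and meningeal markers was 0.707 to 424 CPM in astrocytes and 0 to 141 CPM in neurons, that of 10 endothelial markers 0.47 to 330 CPM and 0 to 6.02 CPM, and that of 9 oligodendrocyte markers 0 to 84.7 CPM and 0.215 to 45.8 CPM. Their part in the results below was not tested.

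All 8 hippocampal neurons carried the genes of GABAergic interneurons. Gad1 ran from 4297 to 11974 CPM (median 8250), Gad2 from 1314 to 6811 CPM (median 4887) and Slc32a1 from 493.1 to 1283 CPM (median 1021), with no neuron low in any of them. The neuropeptide gene Npy was at 221 to 7210 CPM, the secreted matrix protein gene Reln at 168 to 5253 CPM, and Lhx6, a transcription factor of interneurons born in the medial ganglionic eminence, at 12.7 to 422 CPM. Sst, Vip and Calb2, which mark other interneuron classes, reached no more than 1.29 CPM in any library. Genes of glutamatergic neurons were low: the vesicular glutamate transporter Slc17a7 had a median of 1.51 CPM and a highest value of 102 CPM, and Neurod6 a median of 0 and a highest value of 36.1 CPM. The summed level of the 10 excitatory markers was 6.44 to 464 CPM, against 10173 to 33034 CPM for the 15 inhibitory markers. The neuron group is thus made of cells with GABAergic genes, and the values below do not describe hippocampal pyramidal cells.

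**Figure D1:**
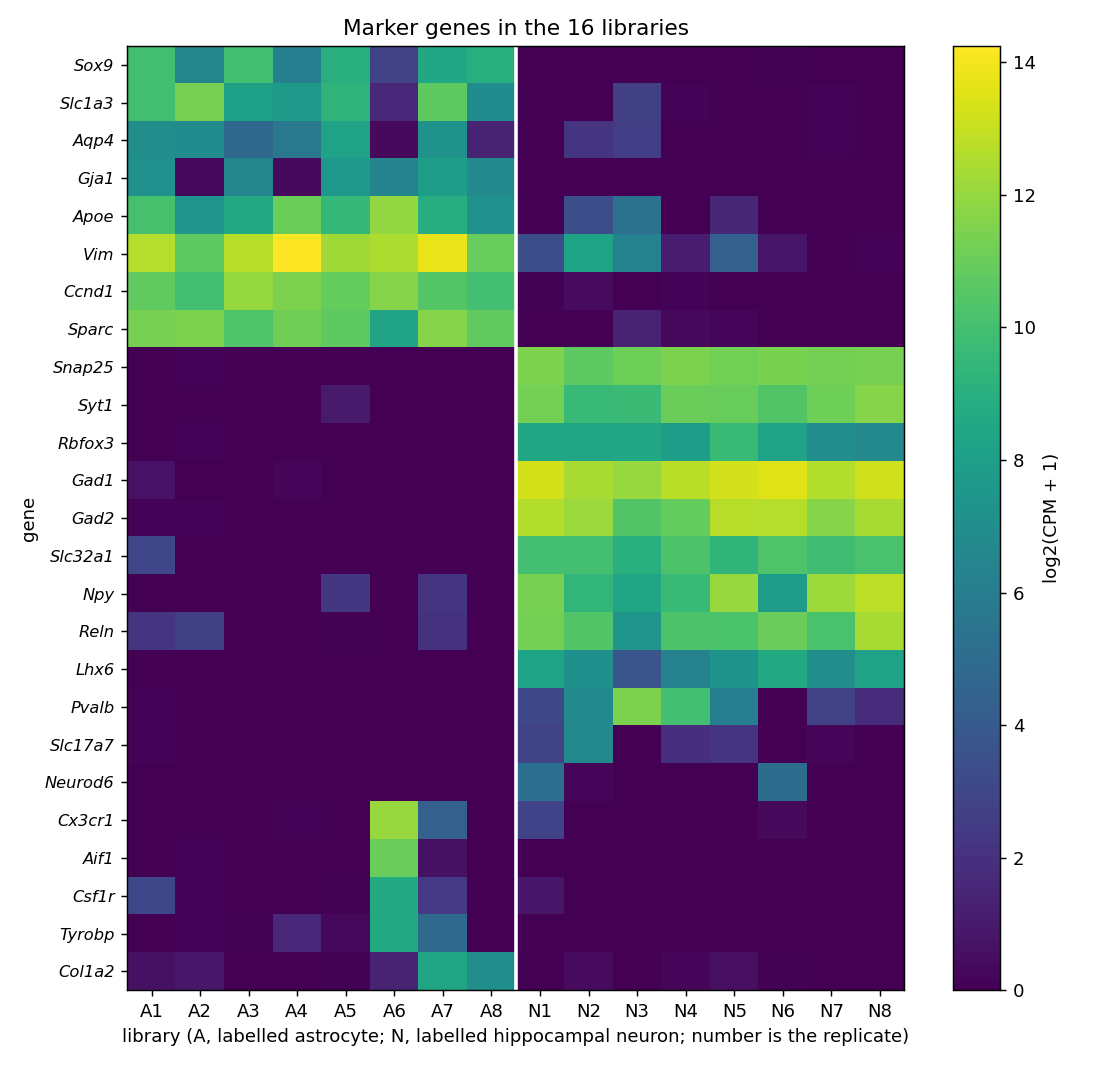
Level of 25 marker genes (rows) in the 16 libraries (columns, A for astrocytes and N for hippocampal neurons, numbered by replicate), as log2(CPM + 1) on the colour scale. Gad1, Gad2 and Slc32a1 are high in all 8 neurons, and astrocyte 6 alone is high in Cx3cr1, Aif1, Csf1r and Tyrobp while it is low in Slc1a3 and Aqp4.

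Of 13669 genes with at least 10 counts over the 16 libraries and a count in at least 3, 4181 (30.6%) were at least 2-fold higher in astrocytes and 4540 (33.2%) at least 2-fold higher in neurons. A stricter description asks that every library of one group lie above every library of the other, here called separated. That held for 109 genes (0.797%) higher in astrocytes and 662 genes (4.84%) higher in neurons. Without astrocyte 6 the measured genes numbered 13579. Of these, 187 (1.38%) were separated toward astrocytes and 691 (5.09%) toward neurons. All 109 and all 662 genes were among these. Fewer genes were detected in astrocytes than in neurons. With only the 4 astrocytes that had at least 5000 genes detected, 983 genes were separated toward astrocytes. A group with fewer cells separates more genes by construction, so these counts do not measure the part of detection or of astrocyte 6. The scaling moved the balance of the calls. With CPM, 47.9% of the 2-fold differences were higher in astrocytes, with edgeR's TMM factors 60.9% and with DESeq2's size factors 64.96%. The median log2 ratio of all genes was -0.10, 0.39 and 0.59 under the 3 scalings, a shift of 0.49 and 0.69. Taking the median of cells in place of summed counts moved the balance the other way, with 2280 genes higher in astrocytes and 5495 in neurons.

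The gene with the widest gap toward astrocytes was Ccnd1, the D-type cyclin that starts the G1 phase of the cell cycle. Its 8 astrocyte libraries ran from 1010 to 4000 CPM (median 1806), and its neurons from 0 to 0.322 CPM. No library of one group came near the other. The summed level was 2178 CPM in astrocytes (95% Poisson interval 2169 to 2187, counting error only) and 0.0455 CPM in neurons (0.0124 to 0.116), a log2 ratio of 11.03. Astrocyte 6 shared in it, at 3173 CPM. Ccnd2 was at 137 to 2622 CPM (median 1131) in astrocytes and 0 to 13.0 CPM in neurons (log2 ratio 8.64). The CDK inhibitor Cdkn1a was separated as well, at 0.230 to 610 CPM and no counts in any neuron. Ccnd1 lies on chromosome 7 at 144929931 to 144939925 (GRCm38, minus strand, GENCODE annotation).

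The next widest gaps were those of Anxa3 and Sparc. Anxa3, a phospholipid-binding annexin, was at 207 to 11111 CPM (median 2645) in astrocytes, with no counts in any neuron, which makes it at least 86980-fold higher (a floor of 3 counts over the neuron group). Sparc, a secreted matrix protein that astrocytes release and that acts on synapses, was at 321 to 3237 CPM in astrocytes, with astrocyte 6 lowest, and 0 to 1.72 CPM in neurons. Anxa2 (20.2 to 419 CPM), the mucin-like membrane protein Pdpn (14.5 to 740 CPM), the milk fat globule protein Mfge8 (8.64 to 112 CPM) and the TNF receptor Tnfrsf1a (5.48 to 254 CPM) had no counts in any neuron. The actin-binding protein Tagln was at 50.2 to 412 CPM against at most 0.161 CPM in neurons. S100a6, Clic1, Ppap2b, Pmp22, Pdlim2 and Smpdl3a completed the 15 genes of this direction, with log2 ratios between 6.42 and 8.87.

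Which genes led depended on astrocyte 6. Over the other 7 astrocytes, 5 of the 15 were again among the leading 15: Anxa3, Ccnd1, Sparc, Pdpn and Tagln. The 10 that joined them included Sox9, the transcription factor of astrocyte identity, with a log2 ratio of 9.00, the Notch receptor Notch2 (8.87), coagulation factor F3 (9.06), the laminin chain Lamb2 (7.41), the collagen Col8a1 (9.50), the tetraspanin relative Tm4sf1 (10.68) and the hypoxia-inducible factor Epas1 (8.41). Astrocyte 6 held 5.73 CPM of Sox9 and at most 9.86 CPM of any of the other 9. None of this touched the neuronal side, where the same 15 genes led with 8 astrocytes and with 7.

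The widest gap toward neurons was that of Gad1. It was at 4297 to 11974 CPM in neurons and at most 0.648 CPM in an astrocyte (log2 ratio -12.99). Rab3c, Cplx1 and Snap25, which act in vesicle release, came next. The vesicle GTPase Rab3c was at 1787 to 4059 CPM in neurons and at most 0.115 CPM in astrocytes, the SNARE regulator Cplx1 at 1524 to 4144 CPM with no astrocyte counts (at least 70369-fold higher), and the SNARE protein Snap25 at 1681 to 2930 CPM against at most 0.115 CPM. Gad2 followed (-12.25), then Ube2ql1 and the calcium sensor Syt1, at 810 to 3211 CPM against at most 1.05 CPM. Gad1, Gad2, Rab3c, Cplx1, Snap25 and Syt1 were each at 810 CPM or more in every neuron. The AMPA receptor subunit Gria1 (334 to 1858 CPM), the potassium channel Kcna1 (211 to 1612 CPM), the growth cone protein Crmp1 (305 to 572 CPM), the G protein subunit Gng3 (368 to 1181 CPM) and the protein kinase A subunit Prkar1b (404 to 1193 CPM) were each under 1 CPM in every astrocyte. Tmem59l, Vstm2a and Gdap1 completed the 15.

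**Figure D2:**
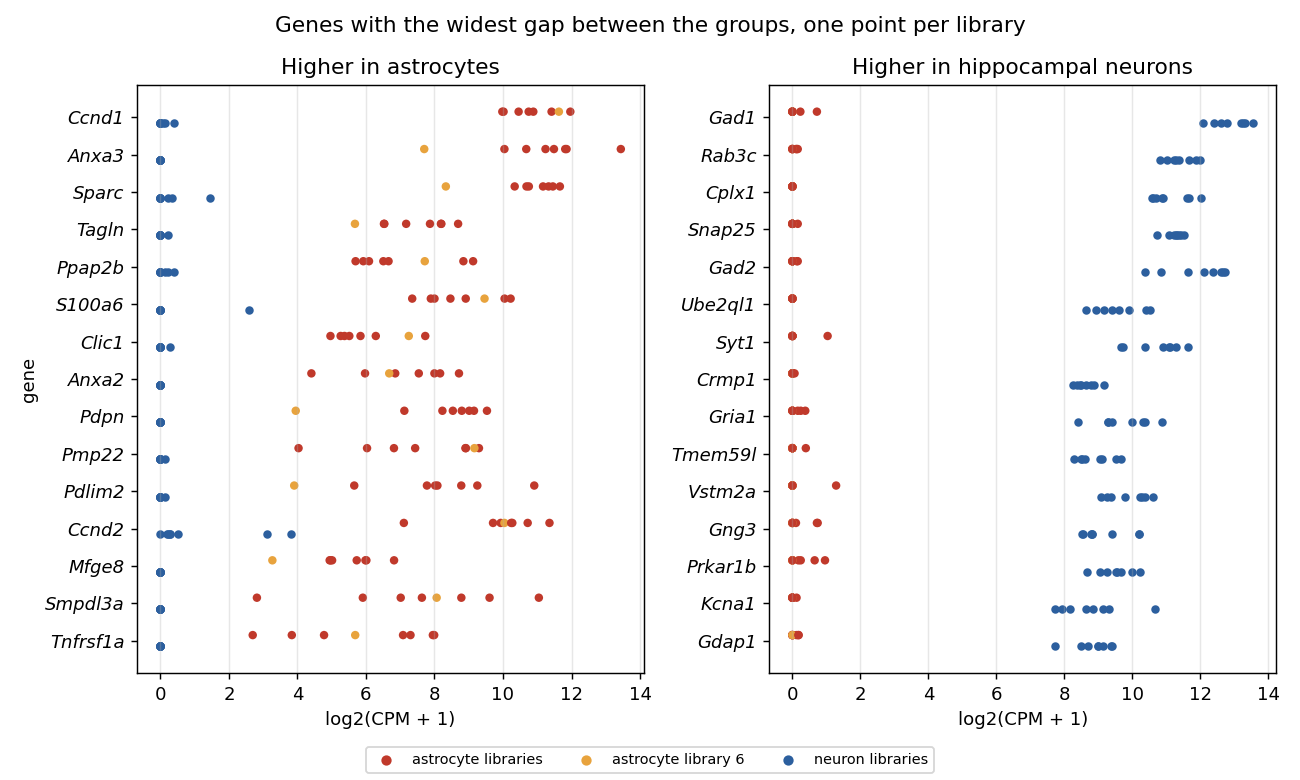
The 15 genes per direction with the widest gap between the lowest library of the higher group and the highest library of the lower group, as log2(CPM + 1), one point per library. Every gene shows 2 clusters of points that do not overlap, and astrocyte 6 (orange) is the lowest astrocyte for Anxa3, Sparc, Pdpn, Tagln, Pdlim2 and Mfge8.

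Gene lists covering cell types, pathways and complexes were read against the background of 30.6% and 33.2% of genes past 2-fold and a median of -0.10 over all genes. Of 19 measured astrocyte markers, 15 were at least 2-fold higher in astrocytes and 2 in neurons (median log2 ratio 4.72). Sox9, Gja1 and Apoe were separated, Gja1 narrowly, since 2 astrocytes were under 0.3 CPM and every neuron was at 0. Without astrocyte 6, Slc1a3 and the membrane protein Mlc1 joined them. The 2 markers higher in neurons were the glutamate transporter Slc1a2, at 0.0883 to 194 CPM (median 1.32) in astrocytes and 0.301 to 561 CPM (median 109) in neurons, and the sodium pump subunit Atp1b2, with medians of 13.5 and 57.6 CPM. All 20 neuron markers were at least 2-fold higher in neurons, 14 of them separated (12 with either of the other scalings), with a median of -7.61. Map2 (-2.01) and the immature neuron marker Dcx (-3.22) differed least. Some astrocytes had neuronal transcripts: Stmn2 reached 853 CPM in 1 astrocyte and Thy1 383 CPM, and 9 of the 20 markers were detected in each of astrocytes 1 and 7. Leaving both out put 843 genes in the separated class toward neurons, in place of 662. A smaller group separates more genes by construction.

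Neural progenitor genes were among the most different of all. Of 10 measured, 9 were at least 2-fold higher in astrocytes and none in neurons, with a median of 6.38 (6.54 without astrocyte 6). The intermediate filament protein Vim ran from 1711 to 19451 CPM in astrocytes and 0 to 312 CPM in neurons, and Nes from 1.45 to 626 CPM and 0 to 0.149 CPM. Fabp7, a fatty acid binding protein of radial glia, had medians of 464 and 0.0471 CPM, and Pax6 medians of 20.3 and 0.141 CPM. Of 24 measured glial and progenitor transcription factors, 17 were at least 2-fold higher in astrocytes and 1, the differentiation inhibitor Id2, in neurons (-1.60; -2.69 without astrocyte 6). Sox9 and the Hippo pathway coactivator Yap1 were separated. Nuclear factor I genes, which act in gliogenesis, did not follow the list: Nfia (-0.40), Nfib (0.49), Nfix (-0.56) and Nfic (-0.98) were all within 2-fold.

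Cell division genes were higher in some astrocytes only. Of 20, 18 were at least 2-fold higher in astrocytes and none in neurons (median 3.53), yet none was separated with CPM. With either of the other scalings 19 were past 2-fold toward astrocytes and 1 was separated. The proliferation antigen Mki67 was at 327, 121, 55.8, 41.5 and 12.1 CPM in astrocytes 5, 7, 1, 6 and 3, and at most 1.84 CPM in the other 3. Top2a, the topoisomerase of dividing cells, was at 762, 374, 136 and 111 CPM in astrocytes 5, 3, 2 and 7. Neurons had at most 0.149 CPM of Top2a, and 1 of them, neuron 3, had 19.8 CPM of Mki67. For the list as a whole, astrocytes 4 and 8 had a mean log2(CPM + 1) of 0.0908 and 0.470, within or below the neurons' 0.452 to 2.38, and the other 6 astrocytes 2.88 to 6.56. Ccnd1 and Ccnd2, unlike these genes, were at 137 CPM or more in all 8 astrocytes.

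Genes of the actin cytoskeleton and of cell adhesion were higher in astrocytes almost throughout. Of 24 contractile and focal adhesion genes, 21 were at least 2-fold higher in astrocytes, 7 of them separated (10 without astrocyte 6), with a median of 4.58. The actin Acta2 was at 102 to 1085 CPM in astrocytes and 0 to 34.7 CPM in neurons, the caldesmon gene Cald1 at 110 to 4107 CPM and 0 to 22.6 CPM, and the carbohydrate-binding protein gene Lgals1 at 104 to 2749 CPM and 0 to 31.01 CPM. Zyx, the zyxin of focal adhesions, went the other way and was separated toward neurons, at 32.4 to 108 CPM against 0 to 21.6 CPM, under CPM but under neither of the other scalings.

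The promoters of this list were searched for the CArG box, the site of serum response factor, written CC, 6 bases of A or T, then GG, on either strand. Of 21 list genes with a RefSeq promoter (250 bases before to 50 after the start, GRCm38.p6), 4 had a match, Myl9, Cnn2, Myl6 and Vcl (19.05%), against 1.68% of all 9841 measured genes with a promoter. The stretches of 100 bases that hold the match in 3 of them are shown because these genes differed by over 5 log2 units between the cell types (Myl9 6.63, Cnn2 5.09, Vcl 6.04). Capitals mark the CArG box. Myl9 encodes a myosin light chain (chr2:156775258-156775357, plus strand, match 161 bases before the start), Cnn2 a calponin (chr10:79988499-79988598, plus strand, 56 bases before) and Vcl vinculin (chr14:20929148-20929247, plus strand, 227 bases before).
Myl9: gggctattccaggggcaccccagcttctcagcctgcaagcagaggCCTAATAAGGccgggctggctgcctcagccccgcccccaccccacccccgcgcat
Cnn2: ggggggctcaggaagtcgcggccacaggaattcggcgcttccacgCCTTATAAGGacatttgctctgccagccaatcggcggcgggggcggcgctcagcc
Vcl: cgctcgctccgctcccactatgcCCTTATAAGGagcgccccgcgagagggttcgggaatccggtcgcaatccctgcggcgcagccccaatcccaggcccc
Myl9 was at 0.526 to 297 CPM in astrocytes with no counts in neurons, Cnn2 at 5.26 to 603 CPM against at most 50.2 CPM, and Vcl at 2.63 to 3120 CPM against at most 45.95 CPM. Acta2 had no match within its window, which says nothing of sites elsewhere, and Tagln was not among the genes with a promoter.

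Matrix genes followed the same direction. Of 16 measured collagens, 12 were at least 2-fold higher in astrocytes and 1 in neurons (median 5.12), and 5 were separated (8 without astrocyte 6). Col5a2 was at 265 to 5150 CPM in astrocytes and at most 52.9 CPM in neurons, and Col11a1 at 0.376 to 2591 CPM (median 161) against at most 0.351 CPM, separated by a narrow margin. Col25a1, a transmembrane collagen of neurons, had a neuron median of 158 CPM and at most 0.300 CPM in astrocytes. Of 18 integrin and laminin genes, 12 were at least 2-fold higher in astrocytes and 4 in neurons. The integrin chain Itgb1 was at 191 to 3238 CPM against 0.161 to 150 CPM. Hapln1, the link protein that holds hyaluronan and proteoglycans together in the matrix around neurons, was separated toward neurons, at 38.9 to 6961 CPM (median 3538) against at most 0.854 CPM, and its log2 ratio of -11.54 was among the largest. The proteoglycan Vcan (-4.12) and the matrix glycoprotein Tnr (-3.21) were higher in neurons too.

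Secreted proteins known to act on synapses were mostly on the astrocyte side, 14 of 18 measured past 2-fold against 3 in neurons (median 3.76; 3.39 without astrocyte 6). Thrombospondin Thbs1, which acts through the calcium channel subunit Cacna2d1, was at 7.61 to 8143 CPM (median 1116) in astrocytes and at most 0.351 CPM in neurons. Cacna2d1 was at 0.1003 to 970 CPM (median 490) in neurons and at most 16.9 CPM in astrocytes. Sparcl1 (hevin), a relative of Sparc that is counted as an astrocyte product, was higher in these neurons, at 262 to 7563 CPM (median 654) against 0.395 to 2068 CPM (median 83.8). The growth factor Igf1 was one of the values that astrocyte 6 set: its log2 ratio was 7.87 with that library and 3.36 without it. Of 44 ligand and receptor pairs, 7 had the ligand at least 2-fold higher in astrocytes and the receptor in neurons. Among them were Thbs1 and Cacna2d1, Ptn and Alk, Slit2 and Robo2, and Nrg1 and Erbb4. The ratio of Robo2, -1.20, lay near the 2-fold limit. A further 8 pairs were higher in astrocytes on both sides, including Jag1 with Notch1 and Notch2. Csf1 with its receptor Csf1r was another of the 8, and it rested on astrocyte 6, without which the log2 ratio of Csf1r went from 5.29 to 1.33. The pair Cx3cl1, higher in neurons (-3.06), and Cx3cr1 rested on astrocyte 6, whose removal took Cx3cr1 from 7.45 to 1.20. It was 1 of 2 pairs with the ligand higher in neurons and the receptor in astrocytes, and 3 pairs were higher in neurons on both sides. Several pairs share a gene. Of all genes, 30.6% were past 2-fold toward astrocytes and 33.2% toward neurons, so some pairs of each pattern arise from any choice of genes. Levels of RNA in single cells show no signalling.

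Potassium, water and coupling genes of astrocytes were at least 2-fold higher in astrocytes for 10 of 13 measured (median 5.24), with 1 gene, Gja1, separated and 4 without astrocyte 6. The inward rectifier Kcnj10 had a median of 6.62 CPM and at most 0.0744 CPM in neurons, and Slc4a4, the bicarbonate cotransporter, medians of 220 and 0.274 CPM. Genes of glutamate handling are given singly, because their median changed sign with the scaling. Glul, which makes glutamine, had medians of 217 and 50.6 CPM (log2 ratio 1.81), the glutamine exporter Slc38a3 was at 0 in all neurons, and Slc1a3 had a ratio of 9.36. The neuronal glutamate transporter Slc1a1 was separated toward neurons, at 13.0 to 683 CPM against at most 3.80 CPM, as was the aminotransferase Got1 at 328 to 901 CPM against at most 51.6 CPM.

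The synaptic and channel lists were higher in neurons with few exceptions. Of 26 presynaptic genes, 25 were at least 2-fold higher in neurons, 17 of them separated (median -5.59). Of 12 measured GABA-A receptor genes 10 were at least 2-fold higher in neurons, 5 of them separated, including Gabra5 (0.645 to 331 CPM in neurons) and Gabrb2 (91.1 to 1235 CPM), and of 16 voltage-gated potassium channel genes 15 were, 6 of them separated, including Kcna1, Kcna2, Kcnc1 and Kcnab2. Kcnd3 was close to equal (-0.39). Sodium channel genes were at least 2-fold higher for 8 of 9, and Scn3b (0.09) was the exception, with 441 CPM in 1 astrocyte.

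Not every glutamate receptor gene was neuronal. Of 14 AMPA and kainate receptor genes, 10 were at least 2-fold higher in neurons and 1 in astrocytes. Gria1, Gria4, Grik1, Grik5, Cacng2 and Cnih2 were separated toward neurons, Grik5 not with DESeq2's size factors. Gria2, whose subunit makes AMPA receptors impermeable to calcium, was at 1.5 to 5731 CPM (median 244) in astrocytes and 0.161 to 737 CPM (median 245) in neurons, and Gria3 had medians of 80.6 and 32.1 CPM. The groups overlapped for both. Among NMDA receptor genes, the obligatory subunit Grin1 was separated, at 37.4 to 210 CPM in neurons and at most 0.0751 CPM in astrocytes. Grin3a was high in 1 astrocyte, at 1037 CPM, and had a median of 0.186 CPM in that group and 101 CPM in neurons. Among metabotropic receptors, Grm5 was separated toward neurons (7.73 to 623 CPM against at most 4.07 CPM), while Grm3, the astrocytic one, had a median of 0 in both groups.

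Pairs of related genes, one broadly expressed and one typical of neurons, were compared within the family. In 19 of 28 pairs the broad member was higher in astrocytes and the neuronal member higher in neurons. In 15 both differences were at least 2-fold, and in 1, Vim and Ina, both members were separated. The neuronal member was at least 2-fold higher in neurons in 25 pairs, and the broad member at least 2-fold higher in astrocytes in 17. Of all genes, 33.2% and 30.6% were past 2-fold in these directions. The pair counts are from CPM only. The median difference within a pair was 6.48 log2 units. The widest was between glutamate transporters, with Slc1a3 at 9.36 and Slc1a1 at -7.90. Other wide pairs were the SNARE proteins Snap23 (4.53) and Snap25 (-11.32) and the intermediate filament proteins Vim (8.06) and Ina (-7.60). Tubulins showed the same pattern, with Tubb6 at 4.31 and Tubb3 at -8.02, as did the lactate dehydrogenase subunits, Ldha at 1.49 and Ldhb at -1.52. The splicing regulators departed from it: Ptbp1, which represses neuronal exons, was higher in astrocytes (3.06), but its neuronal relative Ptbp2 was not higher in neurons (0.55), since 1 astrocyte held 1058 CPM against 11.8 to 213 CPM in neurons. Rab3b, listed as the broad relative of Rab3a, was as neuronal (-8.65) as Rab3a (-7.67). Eno1 was near 0 in both groups. It has near-identical copies in the genome, so its counts are uncertain.

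**Figure D3:**
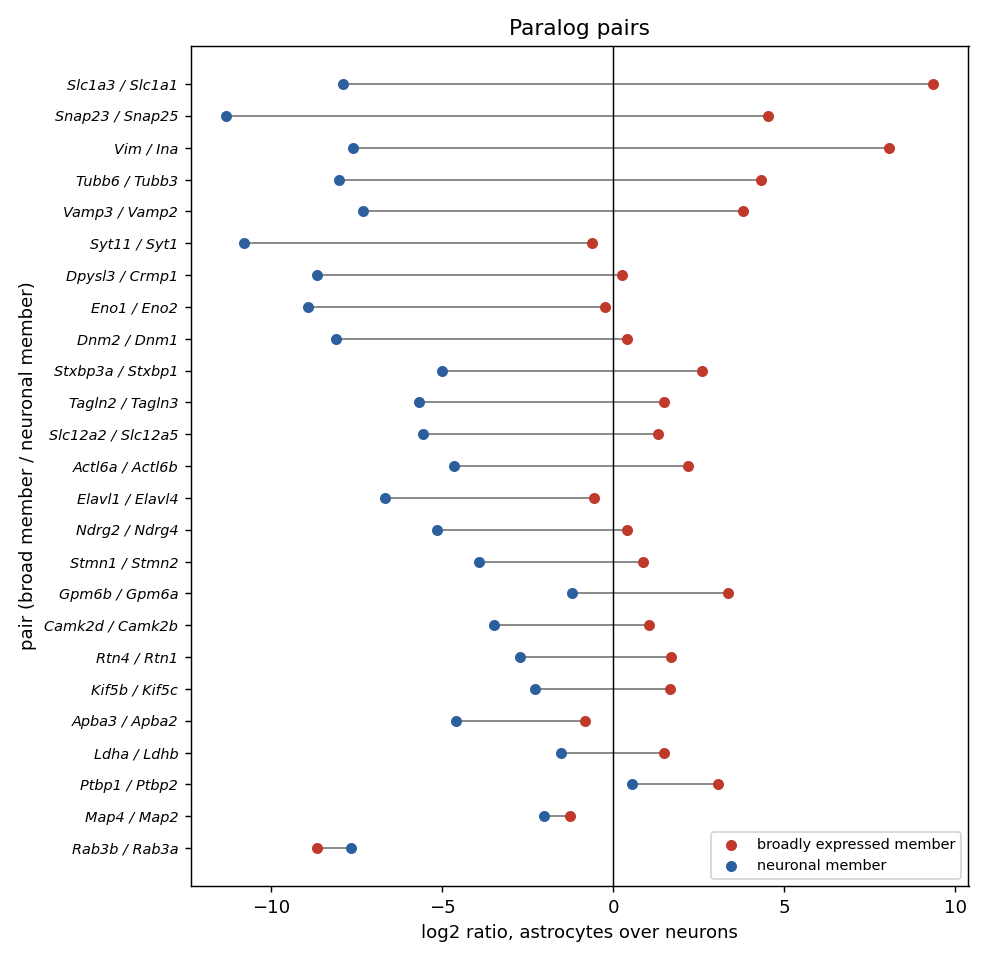
The log2 ratio of astrocytes over neurons for the broad member (red) and the neuronal member (blue) of 25 of the 28 gene pairs, each pair joined by a line. Slc1a3 and Slc1a1 lie farthest apart, and for Rab3b with Rab3a the blue point lies to the right of the red one.

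Energy and biosynthesis genes differed less and more variably. Of 32 nuclear genes of the respiratory chain, 22 were at least 2-fold higher in neurons and none in astrocytes (median -1.45). With CPM 8 were separated, among them Atp5b (2590 to 6633 CPM against 410 to 2450 CPM), Atp5g1, Cox8a and Ndufa4. With TMM factors the median was -0.77 and 10 genes were past 2-fold, with DESeq2's size factors -0.53 and 9 genes, and none was separated under either. The 4 astrocytes with the lowest means for this list were those with the fewest genes detected, and the part of detection was not tested. With the other 4 astrocytes the median was -1.13. Cytosolic ribosomal protein genes went the other way, with 17 of 27 at least 2-fold higher in astrocytes and none in neurons (median 1.45), Rpl7 and Rps4x being separated. All 27 were past 2-fold with TMM factors, at a median of 2.13. Rps4x was at 1117 to 2886 CPM in astrocytes and 121 to 897 CPM in neurons. Within neurons, the 2 libraries whose titles end in D were the highest for ribosomal genes, with a mean log2(CPM + 1) of 8.77 and 9.22 against 7.20 to 7.88 in the other 6. Without them the median was 1.67.

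Of 25 measured genes of glycolysis, glucose and lactate transport, 11 were at least 2-fold higher in neurons and 6 in astrocytes, beside 33.2% and 30.6% of all genes. The median was -0.90, and -0.28 with TMM factors and -0.11 with DESeq2's size factors, so the list is described by its single genes. The neuronal glucose transporter Slc2a3 (-4.01), the hexokinase Hk1 (-2.82), the phosphofructokinase Pfkm (-2.88), Aldoa (-2.99) and Pkm (-2.66) were higher in neurons. The glucose transporter Slc2a1 of glia and endothelium (3.12), Hk2 (7.64), Pfkp (1.07), the glycolysis activator Pfkfb3 (3.45) and the lactate transporter Slc16a1 (2.90) were higher in astrocytes. For Hk2 this rested on few cells, with an astrocyte median of 4.59 CPM and a highest value of 1677 CPM.

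Cholesterol synthesis, for which astrocytes are held to be the main source in brain, was not higher in astrocytes here. Of 21 genes, 11 were at least 2-fold higher in neurons and 2 in astrocytes (median -1.05), and 1 was separated, the squalene synthase Fdft1, at 180 to 465.9 CPM in neurons and 4.60 to 89.9 CPM in astrocytes. Hmgcs1, an early enzyme of the pathway, was at 241 to 1295 CPM (median 991) in neurons and 0.789 to 592 CPM (median 121) in astrocytes. Sqle was the opposite in its highest cells, reaching 3166 CPM in 1 astrocyte against at most 669 CPM in neurons, and the groups overlapped. The SREBP escort Scap (1.11) was one of the 2 genes at least 2-fold higher in astrocytes. Of all genes, 33.2% were past 2-fold toward neurons and 30.6% toward astrocytes with CPM. With TMM factors 7 list genes were past 2-fold toward neurons and 4 toward astrocytes (median -0.45). With DESeq2's size factors 6 and 4 were (median -0.27). All 13669 genes gave 3467 and 5393 with TMM factors, and 3180 and 5895 with DESeq2's size factors. Against cultured cortical neurons of 15 days the list median was 1.62. Those are 5 libraries from cortex with the strain label C57/BL6/N, basecalled with another version, so region, strain label and processing all differ from the hippocampal neurons.
The promoters of 14 of these genes were searched for the sterol regulatory element TCACCCCAC on either strand, and 1 matched, against 0.671% of all 9841 genes. It is Hmgcs1 (chr13:119690169-119690268, plus strand, match 137 bases before the start), shown with the element in capitals as the only match in the list.
Hmgcs1: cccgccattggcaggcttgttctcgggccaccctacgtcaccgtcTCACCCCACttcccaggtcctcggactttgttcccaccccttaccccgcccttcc
Lipoprotein and lipid transport genes were mixed. Of 24, 11 were at least 2-fold higher in astrocytes and 6 in neurons (median 0.66), beside 30.6% and 33.2% of all genes. Apoe, the main lipoprotein of brain, was at 147 to 3892 CPM against 0 to 38.7 CPM in neurons, with astrocyte 6 the highest (log2 ratio 8.06, and 7.50 without it). The lipase Lpl had a log2 ratio of 10.25, and 7.79 without astrocyte 6, which held 10986 CPM. The heart-type fatty acid binding protein Fabp3 was separated toward neurons, at 184 to 279 CPM against at most 5.99 CPM.

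**Figure D4:**
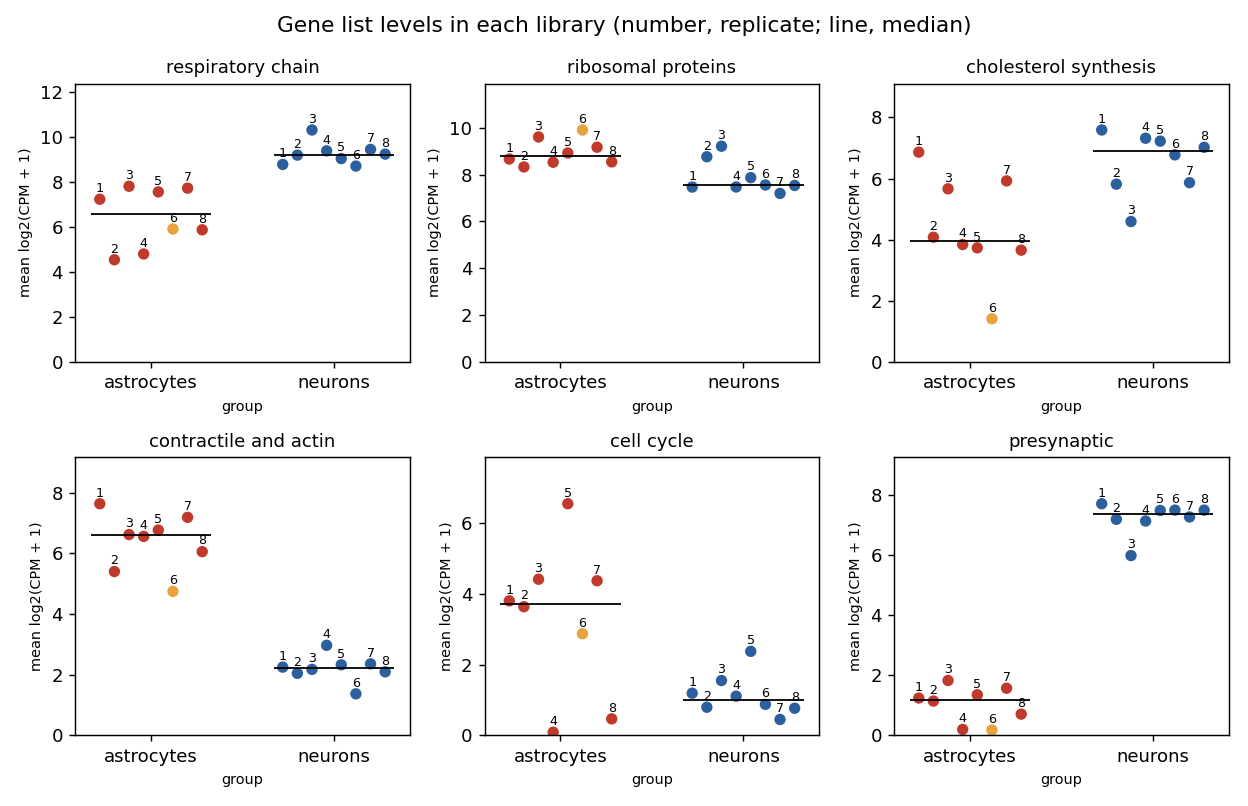
Mean log2(CPM + 1) of 6 gene lists in each library, numbered by replicate, with a line at the group median; astrocyte 6 is orange. Presynaptic and contractile genes separate the groups, cell cycle genes are spread over the astrocytes, and neurons 2 and 3, the libraries with titles ending in D, are the highest neurons for ribosomal proteins.

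Reactive and interferon response genes were mostly higher in astrocytes, and the microglia list rested in part on astrocyte 6. Of 21 measured genes reported in reactive astrocytes, 15 were at least 2-fold higher in astrocytes and 3 in neurons (median 3.68). The hyaluronan receptor Cd44 was at 19.3 to 1340 CPM against at most 13.7 CPM, and Tm4sf1 at 0.376 to 4083 CPM against no counts. Serpina3n, a widely used reactive marker, was higher in neurons, at a median of 78.8 CPM and 0 in astrocytes. Lcn2 was at 0 in every astrocyte. Of 19 interferon response genes, 16 were at least 2-fold higher in astrocytes and none in neurons, and B2m, the light chain of class I molecules, was separated at 224 to 1586 CPM against 0 to 151 CPM. Microglia markers had a median of 5.33 with astrocyte 6 and 2.06 without it.

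Regional identity genes were compared because the groups come from different regions. Nkx2.1, a factor of the medial ganglionic eminence, had a neuron median of 25.9 CPM and no astrocyte counts. Lhx2 was higher in astrocytes (3.30), with medians of 334 and 3.94 CPM. Meis2, a homeobox factor, was separated, at 30.9 to 504 CPM in astrocytes and at most 4.24 CPM in neurons. Of 14 measured hippocampal field genes, 7 were at least 2-fold higher in neurons and 3 in astrocytes, beside 33.2% and 30.6% of all genes. The list median was -1.05, with 0 genes separated toward neurons and 1 toward astrocytes. The field genes Prox1, C1ql2, Fibcd1 and Spink8 were counted in fewer than 3 libraries and were not measured. Zbtb20, which marks hippocampal pyramidal cells but also astrocytes, was higher in astrocytes (5.32). The cultured cortical neurons of 15 days held 423 CPM of Gad1 and also 1315 CPM of Sparc and 522 CPM of Tagln, so they do not stand as a plain region control for these astrocytes. Astrocytes of 12 days, 70 libraries, had 2331 CPM of Ccnd1 and 3451 CPM of Anxa3, close to the levels at 15 days, and astrocytes of 7 days, 3 libraries, 50.6 and 1868 CPM. The 12-day astrocytes carry the strain label C57/BL6/N and the 7-day ones C57/BL6, so days and strain label change together. Nnt, a gene with a known partial deletion in some C57BL/6 substrains, was at 44.7 to 852 CPM in astrocytes and 9.18 to 104 CPM in hippocampal neurons, and at 3.71 CPM in the cortical neurons. A count over the whole gene does not show whether a part of it is deleted.

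Among the neurons, subtype genes were compared between libraries with a common title stem. Neurons 3 and 4 (titles M9D and M9S) held 2802 and 1020 CPM of the calcium-binding protein gene Pvalb, against 0 to 112 CPM in the other 6, and 2246 and 1253 CPM of the neurofilament gene Nefl, against at most 769 CPM. Neurons 1 and 2 (M1S and M1D) held 2530 and 669 CPM of Npy and 7.49 and 112 CPM of Pvalb. Tac1, a peptide precursor, reached 1463 CPM in 1 neuron and had a median of 0. The highest Pearson's r of each D library was with the S library of its stem, 0.632 for M9 and 0.645 for M1, and its r with M6S was close to that, 0.629 and 0.644. The highest r of M1S, 0.849, and of M9S, 0.771, was with M6S. Genes at 10 CPM or more in 2 neurons and under 1 CPM in the other 6 were also counted. They numbered 15 for M9D and M9S and 7 for M1S and M1D, but 34 for M1S and M6S and 23 for M9S and M6S. The labels do not say what the final letters stand for or that a shared stem is a shared cell. If they are, the neurons are 6 cells. Summing each pair left 1031 genes separated toward neurons in place of 662 and 139 toward astrocytes in place of 109. Fewer libraries separate more genes by construction.

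The left part of the RE1 element, written TTCAGCACC and searched on either strand, belongs to the site bound by the repressor REST, which keeps neuronal genes off in other cells. It was found in the promoters of 2 of 13 neuron markers, Syn1 and Scg2 (15.4%), and in 0.549% of all 9841 genes. REST itself was low, at 0 to 23.5 CPM (Rest, log2 ratio 3.00). Syn1, the synaptic vesicle protein synapsin, is shown because it was separated, at 160 to 363 CPM in neurons and at most 0.847 CPM in astrocytes (chrX:20921069-20921168, minus strand, match 232 bases before the start), with the match in capitals. A palindromic nuclear factor I site, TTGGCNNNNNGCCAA, was found in none of 14 astrocyte marker promoters and in 0.0406% of all genes.
Syn1: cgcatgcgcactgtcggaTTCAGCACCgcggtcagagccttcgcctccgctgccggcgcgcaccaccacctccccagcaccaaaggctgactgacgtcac

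**Figure D5:**
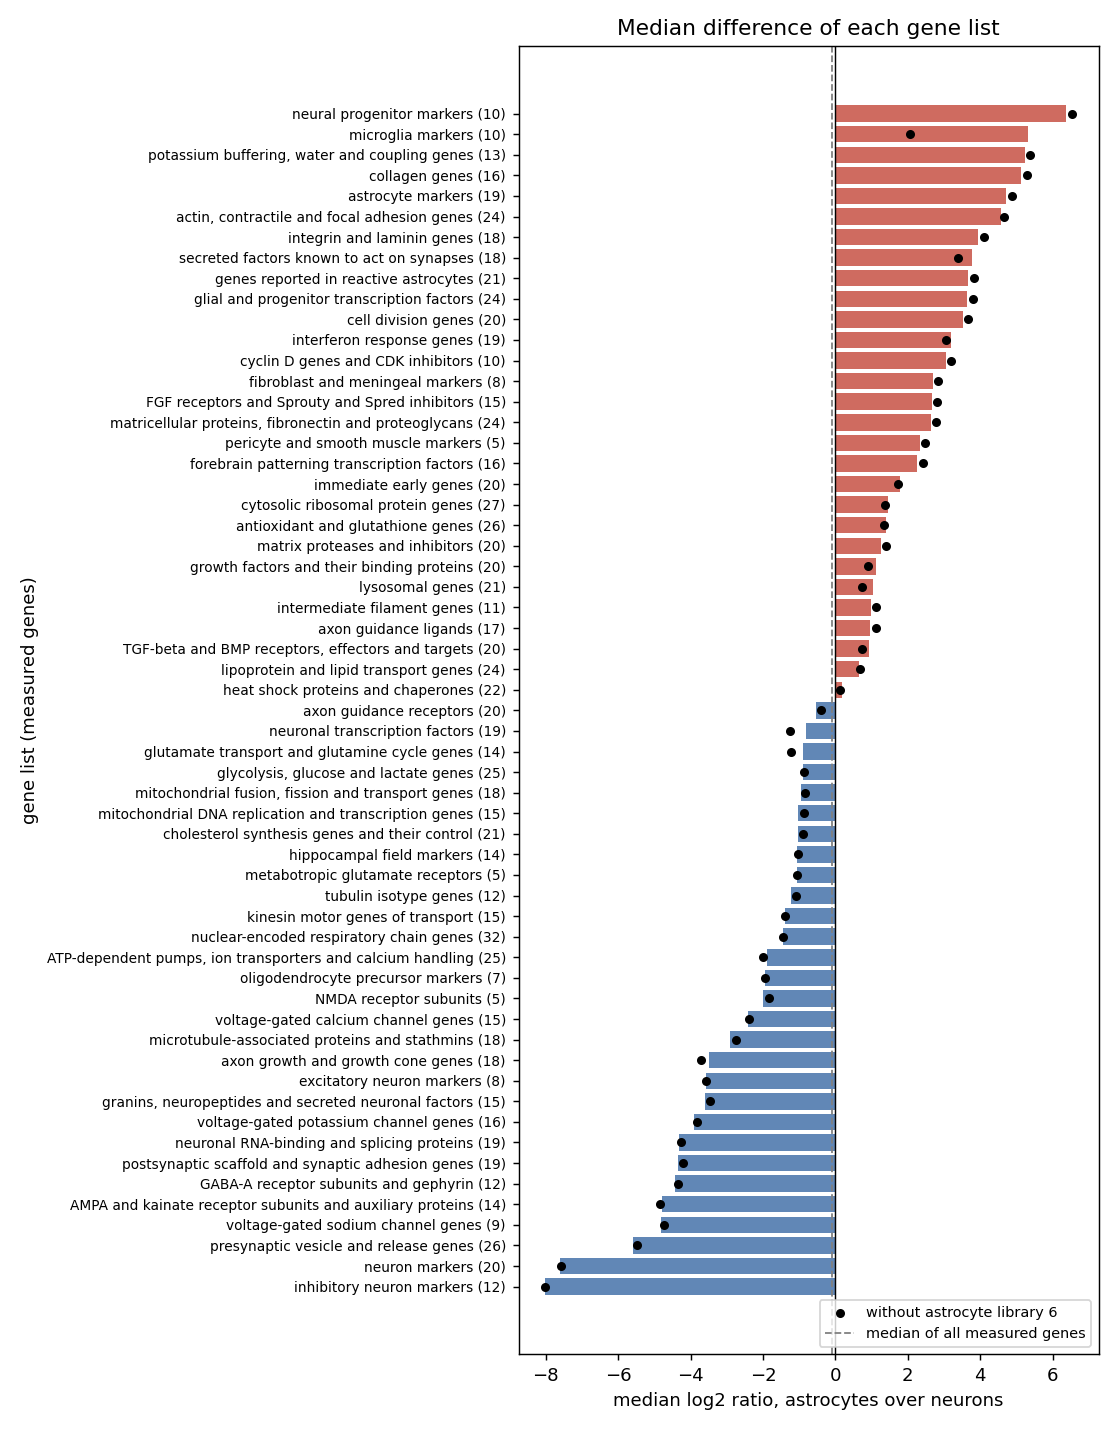
Median log2 ratio of astrocytes over neurons for each gene list with at least 5 measured genes, sex-linked genes left out (bars, number of genes in brackets), and the same without astrocyte 6 (black points); the dashed line is the median of all measured genes, -0.10. The microglia list moves from 5.33 to 2.06 without that library, while the inhibitory neuron list stays at -8.02.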

How the data were processed

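Whole-number read counts per gene in 158 libraries were deposited by the authors as 1 table of 21956 gene rows; bcl2fastq, STAR and HTSeq on GRCm38 (mm10) are named in the submitters' processing notes, and bcl2fastq2 2.17 for these 16 libraries per the labels. Libraries were TruSeq Stranded, per the labels' protocols; the strand setting of the counting is not given in the sources used here. Counts were scaled to CPM over all gene rows and summed per group; Poisson intervals (95%) and floors (3 counts) cover counting error only, and amplified reads are not independent molecules. Ratios add 1 CPM. Detection used 5 counts after thinning to 2000000 (seed 7). With 1 sample per group no test was made. Named genes are the 15 per direction with the widest gap between groups at 10 CPM or more, predicted genes passed over, and members of the lists. The members and the 63 lists were chosen with earlier results of these data known; 4 list symbols were not in the table. Alternatives were other scalings (edgeR 4.0.16 TMM, DESeq2 1.42.0 size factors), pseudocounts, filters, cell averages, thinning and leaving out each library. Repeats without astrocyte 6, without the astrocytes with few genes, and without astrocytes 1 and 7 were chosen after seeing the data. Promoters are RefSeq's, GRCm38.p6. The calculation was tested on simulated counts. Python 3.11.15 and R 4.3.3 were used. Some genes are not reported here.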

Additional observations from a re-analysis of the deposited data

Results flagged for a closer look

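In 17 of 162 groups of 8 libraries, one library stood away from the other 7 by more than Dixon's 95% criterion allows. For independent normal values that happens in about 1 in 20 groups. These groups share the same libraries, and the named genes were picked by the gap between groups. The number of flags is therefore not read as an excess. Values are mean log2(CPM + 1) of a list, or log2(CPM + 1) of a gene, followed by the nearest other library.

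Astrocyte 6 was far above the rest for microglia markers, at 7.76 against 3.56, and far below for integrin and laminin genes (1.12 against 2.95), potassium and water genes (1.28 against 3.62), Sparc (8.33 against 10.34) and Pdpn (3.95 against 7.12). Astrocyte 7 was the highest for ependymal markers (2.82 against 1.34) and metabotropic glutamate receptors (1.10 against 0.35), astrocyte 2 for NMDA receptor subunits (1.70 against 0.58), where it held 1037 CPM of Grin3a, and astrocyte 4 was the lowest for Ccnd2 (7.11 against 9.71).

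Neuron 3, one of the 2 with a title ending in D, was the lowest neuron for presynaptic genes (5.98 against 7.13), axon growth genes (4.88 against 6.55) and pumps and calcium handling (4.82 against 6.01), and the highest for the respiratory chain (10.31 against 9.44). Neuron 7 was the lowest for tubulins (6.71 against 7.23), growth factors (1.07 against 2.09) and reactive genes (0.31 against 0.88). Neuron 4 was the highest for fibroblast markers (1.23 against 0.53).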

How the results depend on the processing

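Detection limits these comparisons, since 4 astrocytes had fewer than 5000 genes detected, and a 0 in a library does not show whether a transcript was absent or missed. Of 52 lists with a median log2 ratio of at least 1 in size, 43 kept their sign under all 31 other settings and 6 changed sign only against the cortical neurons. Averaging by the median of cells gave 2280 genes at least 2-fold higher in astrocytes and 5495 in neurons. The number separated toward astrocytes was 183 with TMM factors, 221 with DESeq2's size factors, 9 with the 70 astrocytes of 12 days in place of those of 15 days and 983 with the 4 astrocytes that had 5000 genes or more. The number separated toward neurons was 426 with DESeq2's size factors, 997 without the D libraries, 1031 with S and D libraries summed, 218 against 12-day astrocytes and 317 for the cortical neurons, whose 5 libraries were summed to 3 by title stem although the labels do not say that a stem is 1 cell. Groups with fewer or more cells separate more or fewer genes by construction. Leaving out each library in turn gave 3805 to 4262 genes 2-fold higher in astrocytes and 4392 to 5001 in neurons. The 3805 and the 5001 were both without astrocyte 7, the library with the most counts. Summed levels weight each library by its counts. In the same way 109 to 187 genes were separated toward astrocytes (187 without astrocyte 6) and 668 to 810 toward neurons. With the cortical neurons the sign turned for the medians of astrocyte markers (-0.22), endothelial markers (-0.25), cholesterol synthesis (1.62), antioxidant genes (-0.00880), ribosomal proteins (-0.15) and mitochondrial DNA genes (0.40), and for Tagln (-1.24) and Mfge8 (-1.27). The oligodendrocyte precursor list, with 7 genes, was 0.76 at 5 CPM or more, 0.14 by the median of cells, 0.63 when thinned, 0.63 without the D libraries and 0.0441 with 12-day astrocytes, and ran from -2.25 to 0.69 when single libraries were left out. Metabotropic receptors ran from -1.45 to 0.44 in the same way, and hippocampal field markers were 0.11 with 12-day astrocytes. The causes were not tested. By scaling, the medians of oligodendrocyte markers (-0.10 to 0.31), axon guidance receptors (-0.55 to 0.33), neuronal transcription factors (-0.81 to 0.10) and glutamate cycle genes (-0.88 to 0.03) changed sign. No paired analysis was possible because no test was made and replicate numbers follow accession order only.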

Other observations

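Immediate early genes, which respond to stimulation and handling, were higher in astrocytes for 12 of 20 measured at 2-fold and in neurons for 1, with a median of 1.77 and none separated. The phosphatase Dusp1 had a median of 139 CPM in astrocytes and 0.395 CPM in neurons, and the transcription factors Egr1 and Fos medians of 70.5 and 64.99 CPM against 0.178 and 0.236 CPM. Egr1 reached 3050 CPM in astrocyte 2. Jund was the gene higher in neurons (-2.47). Of 15 FGF receptor and Sprouty genes, 10 were at least 2-fold higher in astrocytes and 3 in neurons. The receptor Fgfr1 was at 12.0 to 328 CPM in astrocytes and reached 42.7 CPM in 1 neuron, and without astrocyte 6 it was separated. Among growth factors, the EGF receptor ligand Hbegf was separated toward astrocytes at 209 to 4055 CPM against 0 to 119 CPM, and Igfbp5, an IGF binding protein, at 150 to 1762 CPM against 0 to 40.3 CPM. Fgf13, an intracellular regulator of sodium channels, was separated toward neurons, at 1200 to 2915 CPM against at most 186 CPM.

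Of 26 antioxidant genes, 15 were at least 2-fold higher in astrocytes and 4 in neurons (median 1.39). The heme oxygenase Hmox1 was separated, at 1.13 to 354 CPM in astrocytes with no neuron counts. Nqo1, a quinone reductase, was at 37.1 to 452 CPM in 4 astrocytes and 0 in the other 4. The mitochondrial dismutase Sod2 was higher in neurons, with medians of 273 and 64.1 CPM. Of 22 chaperone genes, 7 were at least 2-fold higher in astrocytes and 6 in neurons, near the 30.6% and 33.2% of all genes. The clathrin-uncoating chaperone Hspa8 was separated toward neurons with CPM (1311 to 4598 CPM against 642 to 1035 CPM) but with neither of the other scalings, and its cofactor Dnajc6 under all 3 (121 to 434 CPM against at most 8.14 CPM). Hspa5 of the endoplasmic reticulum had medians of 1200 and 290 CPM. Among lysosomal genes the protease Ctsl (569 to 2050 CPM against 86.6 to 218 CPM) and the progranulin gene Grn (96.2 to 1002 CPM against 0 to 67.8 CPM) were separated toward astrocytes. Of 19 neuronal RNA-binding proteins, 14 were at least 2-fold higher in neurons and 1, Mbnl2 (1.62), in astrocytes. Rbfox3 was at 102 to 766 CPM in neurons and at most 0.115 CPM in astrocytes, and Celf2 was high in both, with medians of 1034 and 669 CPM.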
